A study of Sus scrofa with 6 samples.

Results

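The enzymes and partners that write, copy and erase 5-methylcytosine were followed by RNA-seq in oocytes of the pig (Sus scrofa). The 9 genes were set by name: the DNA methyltransferases DNMT1, DNMT3A and DNMT3B, the UHRF proteins UHRF1 and UHRF2, the dioxygenases TET1, TET2 and TET3, and DPPA3. Of these, 7 could be matched to 1 of the 25880 Ensembl identifiers of the count tables. TET2 and DPPA3 had no identifier in the table of gene names and were not analysed here. All 7 matched genes passed the filter on low counts.

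The libraries were made from oocytes arrested in the second meiotic metaphase (MII), 3 from malathion-treated (MAL) and 3 from control oocytes. Malathion, an organophosphate insecticide, was present at 1 mM during in vitro maturation and was diluted from a 0.75 M solution in DMSO. Whether control oocytes received DMSO alone was not stated in the sources used here. All oocytes came from abattoir ovaries, from antral follicles of 3 to 6 mm, and were collected as complexes with their cumulus cells. The labels give no breed, animal or number of oocytes per library, and they do not say whether replicates came from separate cultures. The p-values therefore measure the spread between these libraries, which may be technical. The comparison asks how malathion affects the mRNA that a mature oocyte holds in store.

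DNA methylation in mammals is set by DNMT3A and DNMT3B, which act on unmethylated sites, and is kept through cell division by DNMT1, which copies the mark onto the newly made strand. UHRF1 binds half-methylated DNA and brings DNMT1 to it. TET enzymes oxidise the mark and so start its removal. An oocyte makes little RNA of its own at this stage and hands its stored transcripts to the embryo, in which methylation of the parental genomes is first lost and later rebuilt. In the mouse, the egg uses a shorter DNMT1 protein from its own promoter, and counts per gene do not separate such forms.

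Gene counts ranged from 25816040 to 42312341 per library, and levels are given as counts per 1000000 gene counts (CPM). The replicate 3 libraries of both groups stood apart from the other 4, with 8492 genes detected in the malathion and 8344 in the control library, against 12211 to 14707 elsewhere. Their TMM factors, which correct for composition, were 0.138 in the malathion and 0.141 in the control library, against 2.26 to 3.57 elsewhere, and the group means and fold changes below include both. All 12 oocyte markers that could be matched (among them GDF9, BMP15, ZP3 and BTG4) had counts in every library. They summed to 88072, 64619 and 4432 CPM in malathion replicates 1, 2 and 3, and to 81355, 33101 and 4412 CPM in control replicates 1, 2 and 3. The markers did not move together in malathion replicate 3, where ZP2 (2158 CPM) and MOS (1458 CPM) had their highest level of the 6 libraries and made up most of the sum, while GDF9 stood at 27.5 and ZP3 at 1.35 CPM. Cumulus and granulosa cell markers, 13 of them matched, had a summed level of 66.6 to 723 CPM in malathion and 36.1 to 651 CPM in control libraries, mostly from VCAN and KITLG. AMH and AMHR2 were at 0 in all 6 libraries, while 2 to 8 of the 13 were at 0 in a given library. The 10 matched markers of other ovarian cell types (theca, stroma, blood, endothelium) had a summed level of at most 21.5 CPM. Levels in CPM do not tell fewer oocytes from less RNA per oocyte, and the number of oocytes per library is not given.

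DNMT1 (ENSSSCG00000013659), the maintenance methyltransferase, supplied most of the reads of the 7 genes in 5 of the 6 libraries. It took 92.8%, 88.7% and 48.4% of these reads in malathion replicates 1, 2 and 3, and 89.4%, 80.4% and 78.9% in control replicates 1, 2 and 3. Longer transcripts collect more reads, and transcript lengths were not used here, so these shares do not rank the genes by transcript number.

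DNMT1 stood at 37344, 29410 and 482 CPM in malathion replicates 1, 2 and 3, and at 37419, 14660 and 2000 CPM in control replicates 1, 2 and 3. This is 3.73%, 2.94% and 0.0482% of all gene counts in the malathion libraries, and 3.74%, 1.47% and 0.200% in the control libraries. On library totals replicate 1 was highest and replicate 3 lowest in both groups, and the groups overlapped. The Wilson 95% interval of a library's level was 37271 to 37417 CPM in malathion replicate 1 and 37348 to 37490 CPM in control replicate 1, so these neighbours in the order did not differ beyond counting error. The intervals cover counting error only, because PCR copies are not independent molecules. With TMM factors DNMT1 stood at 16557, 10997 and 3484 CPM in malathion replicates 1, 2 and 3. In control replicates 1, 2 and 3 it then stood at 15678.5, 4105 and 14215 CPM, so control replicate 2 was the lowest control library. The means were 22412 ± 19402 CPM in malathion and 18026 ± 17948 CPM in control libraries (SD, n = 3 each). The log2 fold change was 0.31 ± 1.81 (SE), with a 95% interval from −3.24 to 3.87 (edgeR quasi-likelihood test, adjusted p = 0.99998). Its sign turned without malathion replicate 1 (−0.27), without control replicate 3 (−0.22) and with TMM factors (−0.13), and it rose to 1.43 without control replicate 1.

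**Figure D1:**
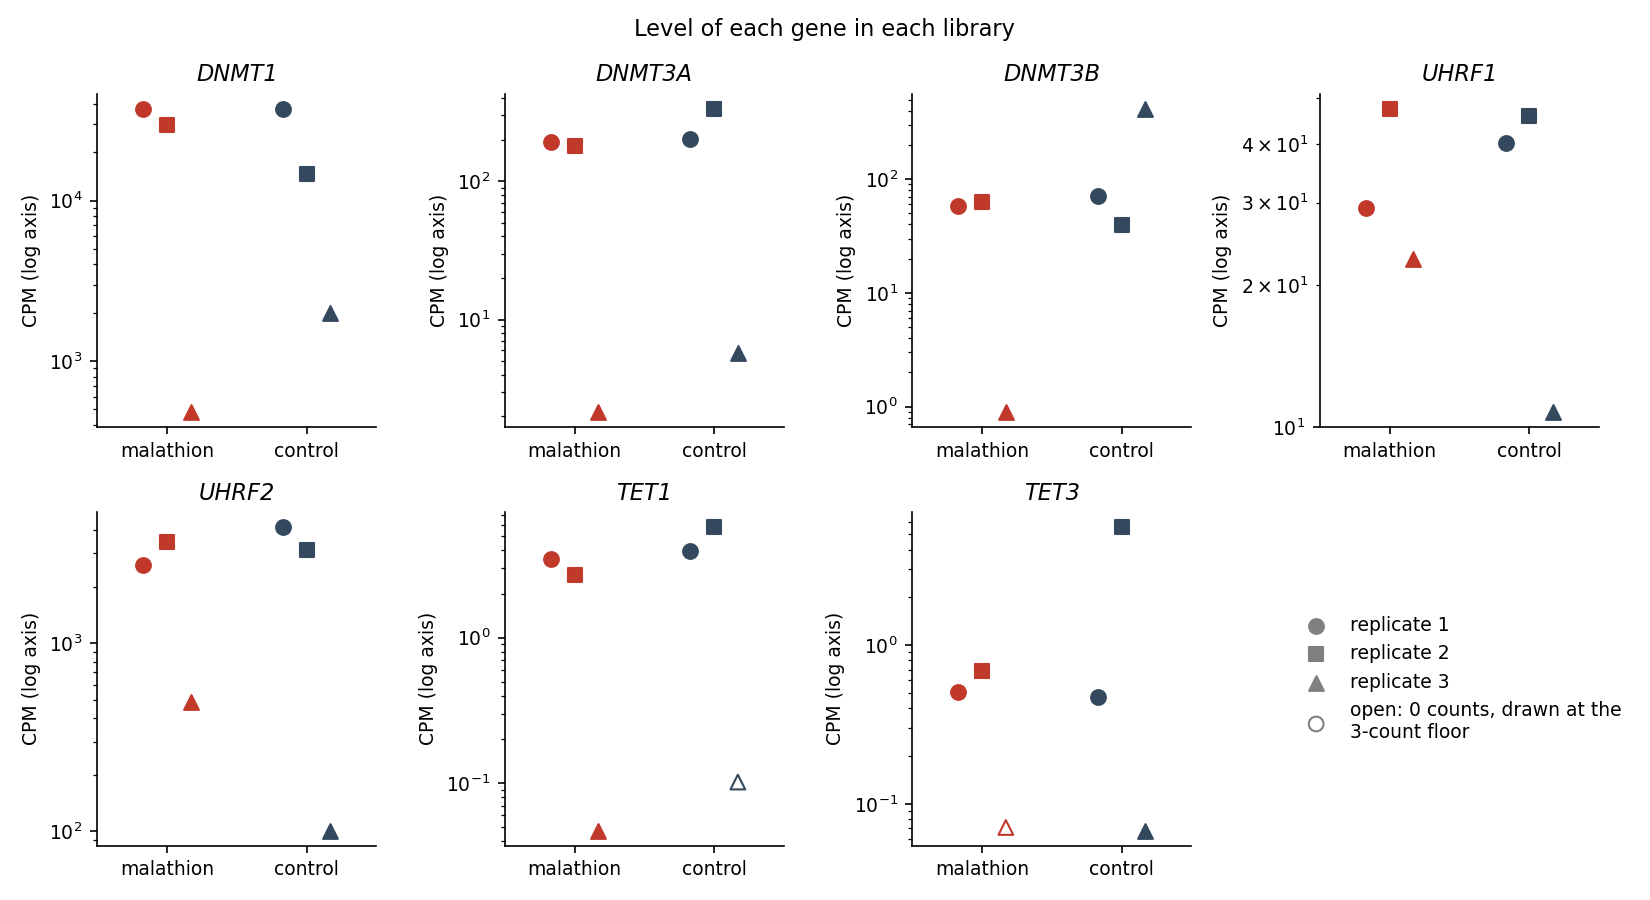
Level of each gene in CPM (log axis) in the 3 malathion (red) and 3 control (dark) libraries, 1 panel per gene, with 1 symbol shape per replicate number and open symbols for libraries with 0 counts, drawn at the 3-count floor. Within each panel the groups overlap, and replicate 3 libraries (triangles) lie lowest except for DNMT3B, whose highest level is the 416 CPM of control replicate 3.

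UHRF2 (ENSSSCG00000005201), a relative of UHRF1 with a similar domain order, stood at 2614, 3435 and 488 CPM in malathion replicates 1, 2 and 3, and at 4138, 3133 and 101 CPM in control replicates 1, 2 and 3. On library totals the 4 libraries of replicates 1 and 2 lay within 1.58-fold of each other, and both replicate 3 libraries lay below them. With TMM factors malathion replicate 3 was the highest library (3531 CPM) and control replicate 3 the lowest (719 CPM). In malathion replicate 3 the gene had 20653 counts, against 20381 for DNMT1, whereas in the other 5 libraries its reads were 5.06% to 21.4% of those of DNMT1. UHRF2 averaged 2179 ± 1521 CPM in malathion and 2458 ± 2102 CPM in control libraries (SD, n = 3 each), and its log2 fold change was −0.17 ± 1.79 (SE, adjusted p = 0.99998 in edgeR's test). The sign turned with TMM factors (0.84), without malathion replicate 3 (0.30), without control replicate 1 (0.43) and without control replicate 2 (0.040), and the value was −0.74 without control replicate 3.

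UHRF1 (ENSSSCG00000013517), the reader of half-methylated DNA, was on library totals the most even of the 5 members with a count in every library. It stood at 29.3, 47.6 and 22.8 CPM in malathion replicates 1, 2 and 3, and at 40.3, 45.9 and 10.8 CPM in control replicates 1, 2 and 3. The highest library exceeded the lowest by 4.42-fold, and the groups overlapped. Among the 6637 tested genes with a count in every library, 334 (5.03%) had a smaller fold between their highest and lowest library, and the median fold was 81.1. The corresponding fold was 77.7 for DNMT1, 40.9 for UHRF2, 156 for DNMT3A and 464 for DNMT3B. This order depended on the scaling. With TMM factors UHRF1 stood at 165 CPM in malathion and 76.4 CPM in control replicate 3, against 12.8 to 17.8 CPM elsewhere. DNMT1 (3484 to 16557 CPM), UHRF2 (719 to 3531 CPM) and DNMT3A (15.6 to 93.9 CPM) were then more even than UHRF1. UHRF1 averaged 33.2 ± 12.8 CPM in malathion and 32.3 ± 18.9 CPM in control libraries (SD, n = 3 each), with a log2 fold change of 0.04 ± 1.96 (SE, adjusted p = 0.99998 in edgeR's test). The sign turned without malathion replicate 2 (−0.31), without control replicate 3 (−0.37) and without both replicate 3 libraries (−0.16). Without control replicate 2 it was 0.38, and with TMM factors 0.88.

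The number of UHRF2 reads per UHRF1 read does not depend on library scaling. It was 89.2, 72.2 and 21.4 in malathion replicates 1, 2 and 3, and 103, 68.3 and 9.40 in control replicates 1, 2 and 3. The ratio was lower in both replicate 3 libraries than in the other 4, and the groups overlapped.

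DNMT3A (ENSSSCG00000029413), a de novo methyltransferase that in the mouse sets the methylation of the growing oocyte, stood at 192, 180 and 2.15 CPM in malathion replicates 1, 2 and 3. It stood at 204, 335 and 5.70 CPM in control replicates 1, 2 and 3. The order was led by control replicate 2, and the groups overlapped through the low replicate 3 libraries. The Wilson 95% intervals of neighbours in the order were separate, as those of the 2 replicate 3 libraries (1.75 to 2.64 CPM in malathion and 4.90 to 6.63 CPM in control). The means were 125 ± 106 CPM in malathion and 182 ± 166 CPM in control libraries (SD, n = 3 each), and the log2 fold change was −0.54 ± 1.84 (SE, adjusted p = 0.99998 in edgeR's test). Its sign turned without control replicate 2 (0.25) and without malathion replicate 3 (0.035), and the value was −1.11 without control replicate 3.

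DNMT3B (ENSSSCG00000007252), the other de novo methyltransferase, stood at 57.8, 63.4 and 0.898 CPM in malathion replicates 1, 2 and 3, and at 71.5, 39.7 and 416 CPM in control replicates 1, 2 and 3. Control replicate 3, with 12275 counts, was thus the highest library and malathion replicate 3, with 38 counts, the lowest, while the remaining 4 lay within 1.80-fold of each other. On library totals, control replicate 3 was the highest library for 4.42% of the 10678 tested genes. The means were 40.7 ± 34.6 CPM in malathion and 176 ± 209 CPM in control libraries (SD, n = 3 each). The log2 fold change of −2.11 ± 1.93 (SE) did not pass edgeR's test (unadjusted p = 0.274, adjusted p = 0.99998). It was −0.45 without control replicate 3 and 0.12 without both replicate 3 libraries. With TMM factors the value was −5.75, at an unadjusted p of 0.0243 and an adjusted p of 0.99978 in the same test.

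Reads of DNMT3B per read of DNMT3A were 0.300, 0.352 and 0.421 in malathion replicates 1, 2 and 3, and 0.351, 0.118 and 72.9 in control replicates 1, 2 and 3. The malathion libraries and control replicate 1 were alike in this ratio, and both the highest and the lowest value came from control libraries. DNMT3L (ENSSSCG00000028741), the partner of DNMT3A without catalytic activity that is needed in mouse oocytes, had 0 counts in all 6 libraries. A count of 0 allows up to 0.0709 to 0.116 CPM, depending on the library.

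TET1 (ENSSSCG00000010241), a dioxygenase of 5-methylcytosine, had 90, 75 and 2 counts in malathion replicates 1, 2 and 3, and 109, 156 and 0 counts in control replicates 1, 2 and 3. In CPM these were 3.49, 2.70 and 0.0473 in malathion, and 3.92, 5.76 and 0 in control libraries, where a count of 0 allows up to 0.102 CPM. On library totals control replicate 2 was highest, both replicate 3 libraries were at or under the floor of 3 counts, and the groups overlapped. The Wilson 95% intervals of malathion replicate 1 (2.84 to 4.28 CPM) and control replicate 1 (3.25 to 4.73 CPM) overlapped. The log2 fold change was −0.63 ± 2.55 (SE, adjusted p = 0.99998 in edgeR's test), and 0.083 without control replicate 2.

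TET3 (ENSSSCG00000008292), the family member that oxidises the paternal genome of the mouse zygote, had 13, 19 and 0 counts in malathion replicates 1, 2 and 3, and 13, 150 and 2 counts in control replicates 1, 2 and 3. This corresponds to 0.504, 0.684 and 0 CPM in malathion and 0.468, 5.53 and 0.0679 CPM in control libraries. Control replicate 2 was 11.8 times as high as control replicate 1, and the groups overlapped. The Wilson 95% intervals of malathion replicates 1 (0.294 to 0.862 CPM) and 2 (0.438 to 1.07 CPM) and of control replicate 1 (0.273 to 0.800 CPM) overlapped. The log2 fold change of −2.35 ± 2.80 (SE) did not pass edgeR's test (adjusted p = 0.99998), and without control replicate 2 it was 0.55.

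Across the members, 0 of 7 had an adjusted p under 0.05 in edgeR's quasi-likelihood test, and 0% of the 10678 tested genes had. At an unadjusted p under 0.05 there were 0 of the 7 members and 110 (1.03%) of the tested genes. DESeq2 and limma-voom passed 0 members and 0 genes as well, with 0 members at an unadjusted p under 0.05. DESeq2 gave DNMT3B no p-value, at a log2 fold change of −5.98. In edgeR's test DNMT3B had an unadjusted p of 0.0243 with TMM and 0.0238 with RLE factors. It was the 1 member under 0.05 in each. Of the tested genes, 98 higher and 285 lower were under 0.05 with TMM factors, and 97 higher and 316 lower with RLE factors. The groups overlapped for each of the 7 members, and did not overlap for 0.749% of tested genes (0.243% with malathion higher and 0.506% with malathion lower). Of the members, 2 had a positive and 5 a negative log2 fold change, with a median of −0.54, beside 3598 positive and 7080 negative values and a median of −0.33 for all tested genes. With TMM factors the median of all tested genes was −0.08. Over all tested genes, the median half-width of the 95% intervals was 4.36 on the log2 scale in the main fit, on library totals. Differences smaller than this were mostly not detectable in that fit. The half-width was 3.02 with TMM factors, 2.22 with the replicate block and 1.87 without both replicate 3 libraries.

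**Figure D2:**
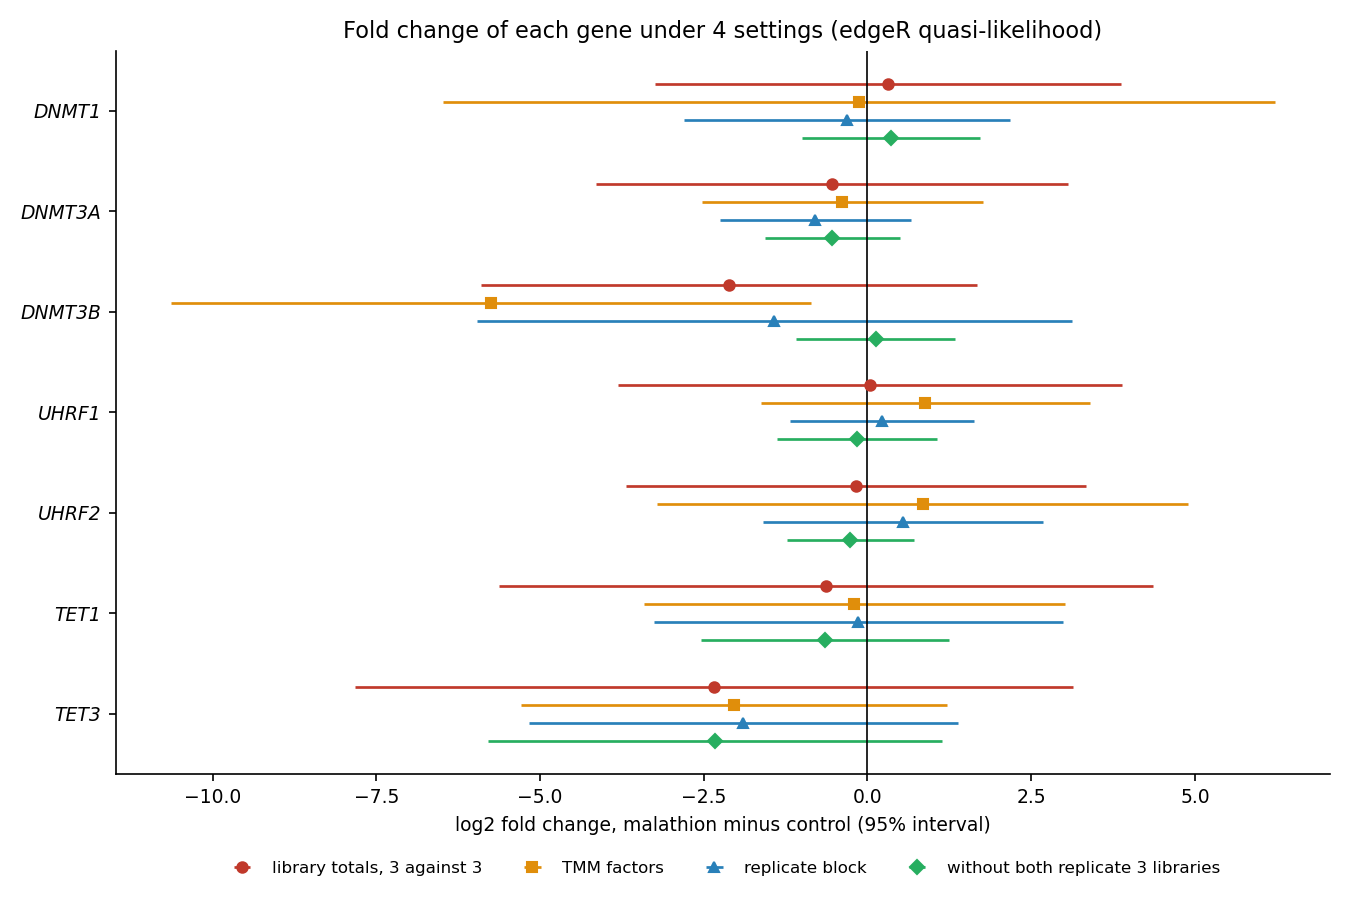
Log2 fold change of each gene, malathion minus control, with its 95% interval (horizontal axis), from edgeR's quasi-likelihood fit with library totals (red circles), TMM factors (orange squares), a replicate block (blue triangles) or without both replicate 3 libraries (green diamonds). Of the intervals drawn, only the TMM interval of DNMT3B (−5.75) does not reach 0, and without both replicate 3 libraries that gene is at 0.12.

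Same-numbered libraries gave 3 different pictures of the 7 genes. In replicates 1 the levels in malathion were 99.8% of control for DNMT1, 94.3% for DNMT3A, 80.8% for DNMT3B, 72.7% for UHRF1, 63.2% for UHRF2, 88.9% for TET1 and 108% for TET3. On the log2(CPM + 1) scale these ratios lay between −0.66 and 0.03, within the range of −0.95 to 0.70 that held the central 90% of tested genes. Genes averaging 100 CPM or more, as DNMT1, DNMT3A, DNMT3B and UHRF2 did, had a narrower central range of −0.52 to 0.40, and UHRF2 (−0.66) lay outside it. In replicates 2, DNMT1 stood at 201%, DNMT3B at 160%, UHRF2 at 110% and UHRF1 at 104% of the control level, while DNMT3A, TET1 and TET3 stood at 53.7%, 46.9% and 12.4%. All of these log2 ratios, from −1.96 to 1.00, were again within the central range of tested genes (−2.64 to 1.38), and those of the 4 genes above 100 CPM within that of genes of such a level (−1.67 to 1.69). In replicates 3, DNMT1 stood at 24.1% and DNMT3B at 0.216% of control, and UHRF1 at 212% and UHRF2 at 482%. The log2 ratios of DNMT3B (−7.78) and UHRF2 (2.26) lay outside the central range of all tested genes there (−2.14 to 1.47). For genes averaging 100 CPM or more the range was −7.65 to 5.61, which held UHRF2 and ended just short of DNMT3B. DNMT3A was the 1 gene of the 7 with the same sign in all 3 pairs (−0.084, −0.89 and −1.09). Its value in replicates 1 lay beside the median of all tested genes there (−0.080). The share of tested genes with the same sign in all 3 pairs was not counted. The check of the pairing, given below, does not tell numbers 1 and 2 from each other.

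**Figure D3:**
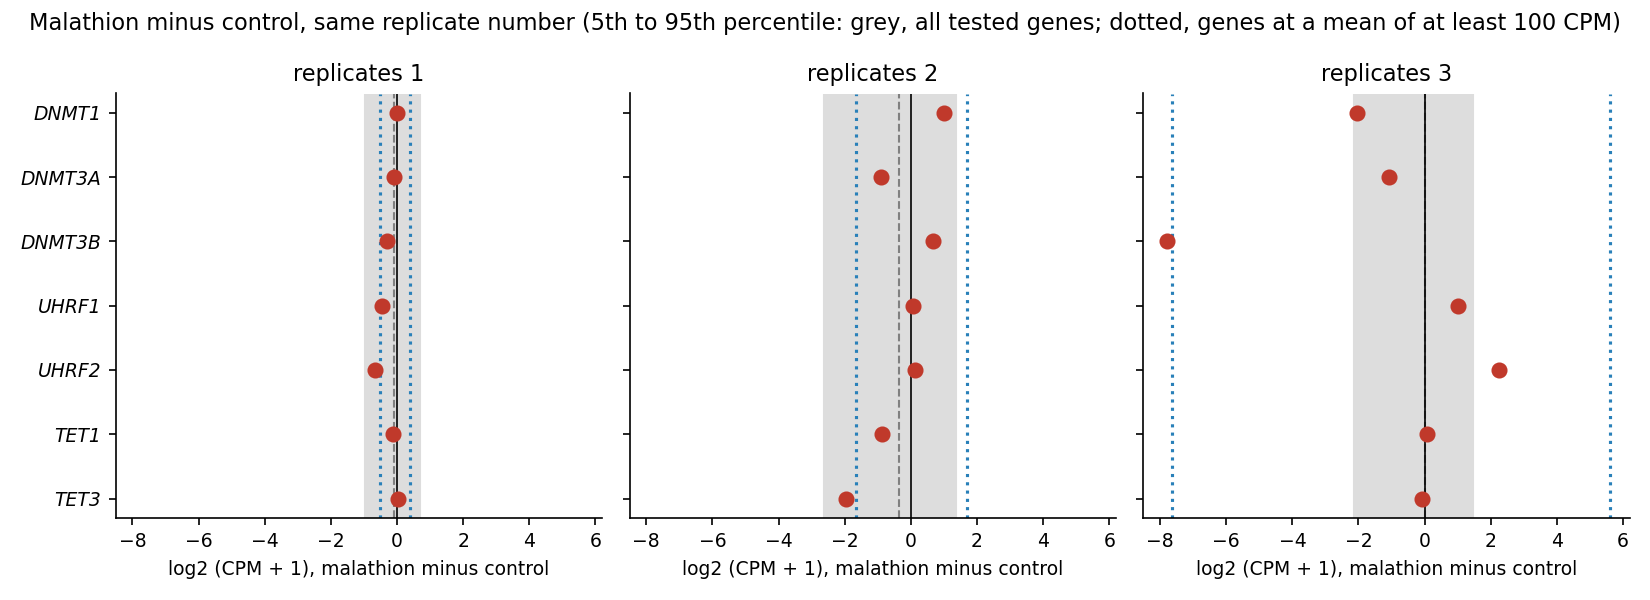
Difference in log2(CPM + 1) between the malathion and the control library of the same replicate number (horizontal axis) for each gene, with the central 90% of all tested genes in grey, their median as a dashed line, and the central 90% of genes averaging 100 CPM or more between the dotted blue lines. In replicates 3 UHRF2 (2.26) lies outside the grey range and inside the dotted one (−7.65 to 5.61), and in replicates 1 UHRF2 (−0.66) lies outside the dotted one (−0.52 to 0.40).

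Ratios of reads within a library, which no scaling alters, were tested by exact permutation (two-sided, 3 against 3 libraries), where the smallest possible p is 0.1. The log2 ratio to DNMT1 averaged −9.08 ± 0.24 in malathion and −6.61 ± 3.77 in control libraries for DNMT3B (SD, n = 3 each, exact permutation p = 0.2, adjusted p = 0.9). For UHRF2 it averaged −2.31 ± 2.05 in malathion and −3.24 ± 1.04 in control libraries (exact permutation p = 0.6). The exact p was 0.8 for DNMT3A, 0.9 for UHRF1 and TET1 and 0.5 for TET3, and the adjusted p was 0.9 for each of the 6 ratios. For DNMT3A this ratio varied little in 4 libraries. There were 5.15, 6.12 and 4.49 reads of DNMT3A per 1000 reads of DNMT1 in malathion replicates 1, 2 and 3, and 5.45, 22.9 and 2.86 in control replicates 1, 2 and 3. Control replicate 2 was the library apart.

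The profile of DNMT1 over the 6 libraries was set against those of 1283 other genes that have a symbol and average at least 100 CPM. Likeness was the root mean square difference of log2(CPM + 1) after centring each gene on its mean. The closest was the oocyte linker histone H1-8 (ENSSSCG00000011591), at 0.286, with 9604, 7585 and 88.3 CPM in malathion replicates 1, 2 and 3 and 8565, 4357 and 697 CPM in control replicates 1, 2 and 3. On library totals both genes thus had their lowest level in malathion replicate 3 and their next lowest in control replicate 3. ASAP1, a regulator of ARF GTPases (0.300), the centromere protein gene CENPC (0.317), SHCBP1 (0.325), the antioxidant regulator NFE2L2 (0.329) and the transcription factor subunit gene TAF9 (0.336) followed. The median over the 1283 genes was 1.41. With TMM-normalised levels 5 of these 6 genes were again among the closest 6. SHCBP1 was then the closest (0.244) and H1-8 was at rank 5 (0.289). A factor shared by all genes of a library nearly cancels in this measure, so this is no separate check. DNMT3A was at rank 143 (0.856), UHRF2 at rank 639 (1.40) and DNMT3B at rank 933 (2.45). BTG4, which also takes a large share of reads in these oocytes, was at rank 19. The further oocyte markers were spread over the ranking. CCNB1 was at rank 74, ZP4 at 127, KPNA7 at 178 and WEE2 at 341. BMP15 (673), PADI6 (714), ZP3 (724), GDF9 (770), ZP2 (1046) and MOS (1088) were further from DNMT1. These are descriptions over 6 libraries that differed in depth and composition.

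**Figure D4:**
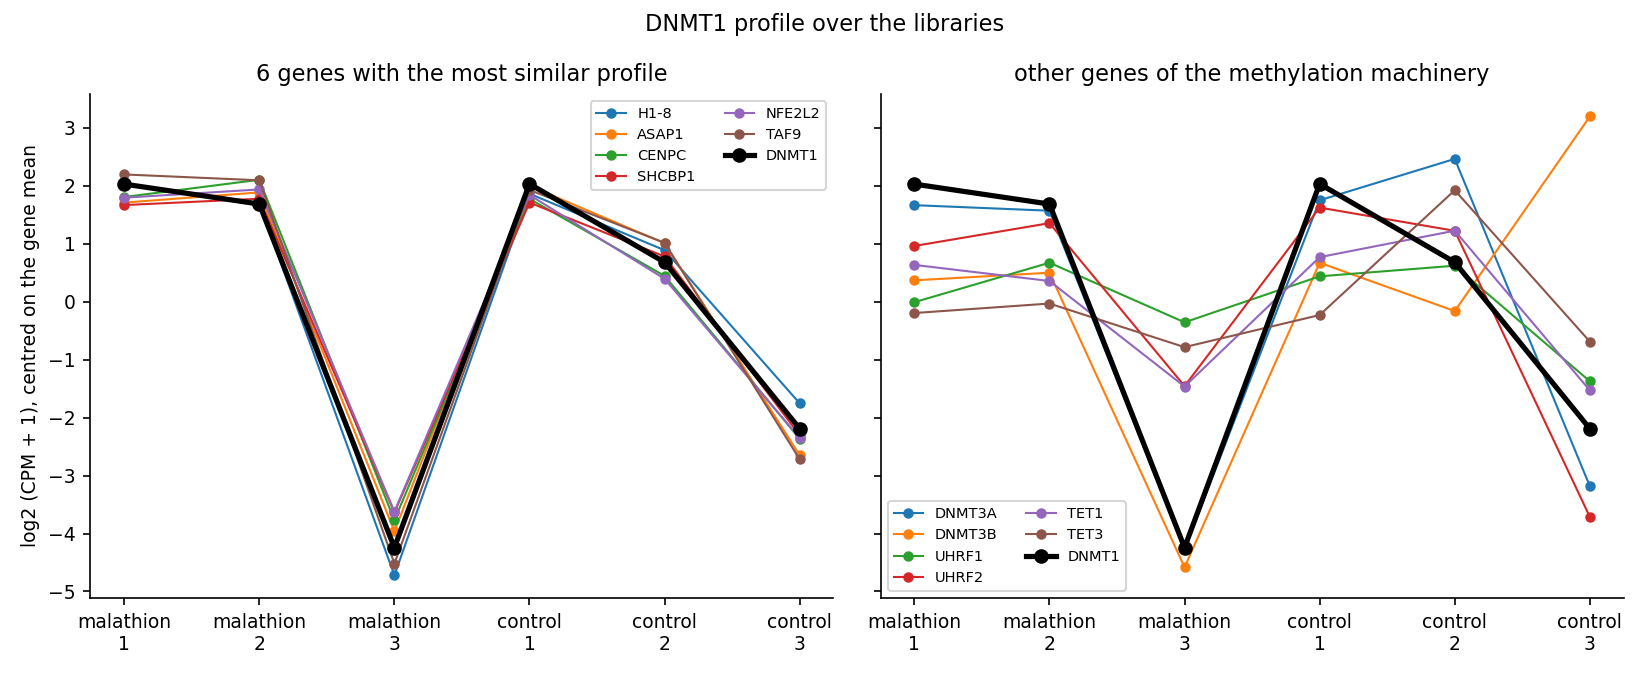
Log2(CPM + 1) of each gene, centred on its mean over the 6 libraries (vertical axis), in malathion replicates 1 to 3 and control replicates 1 to 3, for DNMT1 (black) with the 6 genes of most similar profile (left) and with the other genes of the methylation machinery (right). The 6 genes on the left lie at root mean square differences of 0.286 to 0.336 from DNMT1, against 0.856 to 2.45 for those on the right.

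The libraries that stood apart in the members did so in most genes. On library totals both replicate 3 libraries lay below the other 4 for 6 of the 7 members, and for 83.8% of tested genes. With TMM factors this order held for DNMT3A and TET1, and not for DNMT1, UHRF1, UHRF2 or TET3. The share of tested genes was not counted with TMM factors. On library totals, control replicate 2 was the highest library for DNMT3A, TET1 and TET3, and for 54.7% of tested genes. With TMM factors TET1 was highest in control replicate 1 (1.64 CPM, against 1.61 CPM in control replicate 2). DNMT3A then stood at 93.9 CPM in control replicate 2 and 85.5 CPM in control replicate 1.

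Other genes of the pathway were taken from 4 fixed lists, and 0 of their members passed edgeR's test. Among partners and regulators of the methyltransferases, 18 of 20 genes could be matched and 15 were tested, 5 with a positive and 10 with a negative log2 fold change (median −0.20). CDCA7, a partner of the chromatin remodeller HELLS, stood at 80.6, 63.4 and 911 CPM in malathion replicates 1, 2 and 3, and at 62.4, 63.5 and 52.5 CPM in control replicates 1, 2 and 3. On library totals malathion replicate 3 alone was high, and the groups overlapped. With TMM factors control replicate 3 (373 CPM) also stood above the libraries of replicates 1 and 2 (17.8 to 35.7 CPM). The log2 fold change of 2.56 ± 1.93 (SE) was 0.28 without malathion replicate 3. Its relative CDCA7L was highest in control replicate 2, at 516 CPM against 1.19 to 86.2 CPM elsewhere (log2 fold change −1.999, and 0.74 without that library). USP7, a deubiquitinase that binds DNMT1 and UHRF1, stood at 249, 246 and 1.54 CPM in malathion replicates 1, 2 and 3 and at 256, 187 and 1.26 CPM in control replicates 1, 2 and 3 (0.16 ± 1.83).

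Readers of methylated CpG were tested for 8 of 10 genes, 1 with a positive and 7 with a negative log2 fold change (median −0.55). ZBTB33, which encodes the reader Kaiso, stood at 354, 409 and 40.1 CPM in malathion replicates 1, 2 and 3 and at 440, 450 and 45.3 CPM in control replicates 1, 2 and 3. The replicate 3 libraries were low in both groups on library totals, and the log2 fold change was −0.22 ± 1.81 (SE). With TMM factors those libraries were highest, at 290 CPM in malathion and 322 CPM in control, against 126 to 185 CPM elsewhere. MBD4, a reader that is also a DNA glycosylase, had 0.70 ± 1.94, and ZBTB38 had −0.40 ± 2.02. The sign turned without malathion replicate 2 for MBD4 (−0.088) and without control replicate 2 for ZBTB38 (0.80).

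Of 15 base excision genes, which replace oxidised or deaminated bases, 12 were tested, 4 with a positive and 8 with a negative value (median −0.76). POLB, the polymerase of this repair route, stood at 133, 195 and 5020 CPM in malathion replicates 1, 2 and 3, and at 160, 105 and 58.6 CPM in control replicates 1, 2 and 3. It was the 1 gene of the 4 lists with an unadjusted p under 0.05 (0.0462, adjusted p = 0.99998 in edgeR's test). Malathion replicate 3 alone set its log2 fold change of 4.05 ± 2.03 (SE), which was 0.61 without that library. The groups overlapped. The glycosylase genes NEIL3 and UNG had 0.20 ± 1.80 and −0.084 ± 1.85, and stood between 448 and 795 CPM and between 151 and 196 CPM in the libraries of replicates 1 and 2. In the replicate 3 libraries both stood at or below 11.8 CPM.

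Of 17 genes of the folate and methionine cycles, which supply the methyl donor S-adenosylmethionine, 11 were tested, 4 with a positive and 7 with a negative value (median −0.55). MAT2A, the catalytic subunit of the enzyme that makes the donor, stood at 47.0, 59.3 and 1.09 CPM in malathion replicates 1, 2 and 3, and at 45.9, 178 and 121 CPM in control replicates 1, 2 and 3. The groups overlapped, since control replicate 1 lay below malathion replicates 1 and 2. Its log2 fold change was −1.68 ± 1.93 (SE) and −4.18 with TMM factors. MAT2B, the regulatory subunit, stood at 408, 365 and 5375 CPM in malathion replicates 1, 2 and 3, and at 278, 461 and 8195 CPM in control replicates 1, 2 and 3. It was thus highest in both replicate 3 libraries, and its log2 fold change of −0.54 ± 1.80 (SE) was 2.47 without control replicate 3 and −2.95 without malathion replicate 3. SHMT2, which feeds carbon units into the folate cycle of mitochondria, had 0.28 ± 1.85.

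**Figure D5:**
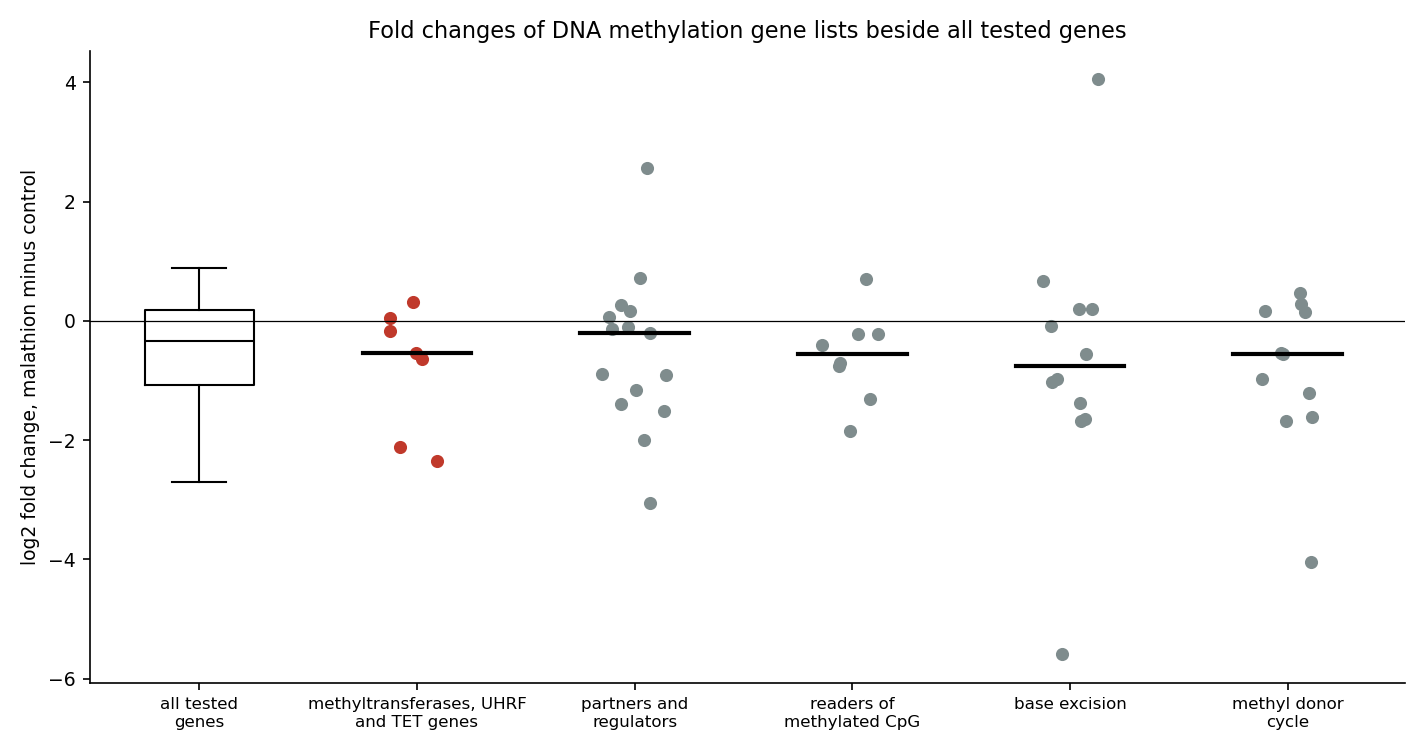
Log2 fold change, malathion minus control (vertical axis), of each tested gene of the methylation machinery (red) and of the 4 further lists (grey), with the list's median as a bar, beside a box of all tested genes (quartiles, median and whiskers at the 5th and 95th percentile). The list medians lie between −0.76 and −0.20, beside −0.33 for all tested genes.

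Control replicate 2 was the highest library for 33 of the 54 detected genes of these 4 lists, beside the 54.7% of tested genes given above. Both replicate 3 libraries were below the other 4 for 40 of the 54. These counts are on library totals. The part of these library differences in the fold changes was not tested beyond the values without a library given here.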

How the data were processed

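Per the labels' protocols, polyadenylated RNA of MII oocytes was amplified with a modified Smart-seq2 method and finished with a TruSeq DNA kit. The authors deposited raw read counts per Ensembl gene, 1 file per library. The submitters' processing notes name STAR 2.5.3a, HTSeq 0.9.1 and DESeq2 1.20.0, while the role of each, the genome build, annotation and strand setting are not given in the sources used here. Rows that name no gene (5 per file) held 36.7% to 42.6% of reads and were left out, reads with more than 1 alignment (2.45% to 8.37%) among them. Gene symbols came from a name table (14857 of 25880 identifiers).

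From the counts, CPM were computed on library totals. The main test of malathion against control was edgeR 4.0.16 in R 4.3.3 (quasi-likelihood F test, two-sided, library totals as library sizes, filterByExpr with a minimum count of 10 and total of 15, Benjamini-Hochberg adjustment over 10678 genes, threshold 0.05). Library totals were used because levels are given on that scale. TMM factors ranged from 0.138 to 3.57. DESeq2 1.42.0, limma-voom 3.58.1, TMM and RLE factors, no filter, a replicate block and leaving out libraries were alternatives. Ratios carried a pseudocount of 0.5 counts and the 0-count floor is 3 counts. The steps were run on simulated counts that had the same mean composition in every library, apart from the genes set to change. That run therefore did not test them under the differences in composition seen here. Libraries of the same number deviated together from their group means (r across genes of 0.463, 0.389 and 0.589 for replicates 1, 2 and 3), so the numbers were taken to pair the libraries. Malathion replicate 2 correlated more with control replicate 1 (0.434) than with control replicate 2, and malathion replicate 1 with control replicate 2 at 0.280, while a replicate 3 library with another number gave −0.545 to −0.382. Within a group the deviations cancel, so a replicate 3 library that stands apart makes replicates 1 and 2 deviate together. The check thus sets replicates 3 apart and does not tell numbers 1 and 2 from each other. This pairing comes from the data, since the labels do not say what a number marks. No 2 libraries were duplicates (chi-square per degree of freedom at least 56.9).

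The members and lists were chosen with earlier results of these data known. Named genes were all members, the 3 genes of each further list with the highest mean CPM, and the 6 genes most like DNMT1. Markers and DNMT3L were named for checks, DNMT3L, ZP2 and MOS after their values were seen.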

Additional observations from a re-analysis of the deposited data

How the results depend on the processing

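The count of members passing the test was 0 under each of the 15 alternatives, as were the counts over all tested genes and over the 4 further lists. The replicate block changed no call. Under the block the log2 fold change was −0.32 for DNMT1, −0.79 for DNMT3A, −1.42 for DNMT3B, 0.22 for UHRF1, 0.54 for UHRF2, −0.14 for TET1 and −1.89 for TET3. For each value below that changed sign the cause was not tested.

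DNMT1 was at −0.13 with TMM factors, −0.23 with RLE factors and with DESeq2, −0.48 with limma-voom and −0.15 with the replicate block and TMM factors. UHRF2 was at 0.84, 0.88, 0.88, 0.54 and 0.74 under the same settings. TET1 was at 0.18 with limma-voom and 0.088 with the block and TMM factors. Without both replicate 3 libraries DNMT3B was at 0.12 (0.26 with TMM factors, an alternative added after seeing the data) and UHRF1 at −0.16. Leaving out 1 library at a time gave −0.27 to 1.43 for DNMT1, −1.11 to 0.25 for DNMT3A, −2.58 to −0.45 for DNMT3B, −0.37 to 0.38 for UHRF1, −0.74 to 0.43 for UHRF2, −1.23 to 0.083 for TET1 and −3.00 to 0.55 for TET3.

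The difference in the log2 ratio to DNMT1, malathion minus control, without both replicate 3 libraries was −0.70 for UHRF1, −0.77 for UHRF2 and −1.13 for TET1, against 0.58, 0.93 and 0.53 with all libraries. With a pseudocount of 5 counts TET1 was at −0.062. Leaving out 1 library gave −1.10 to 0.40 for DNMT3A, −3.68 to −0.30 for DNMT3B, −1.22 to 1.74 for UHRF1, −0.23 to 1.70 for UHRF2, −0.996 to 1.77 for TET1 and −2.65 to −0.22 for TET3.

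Of the further genes, UNG was at 0.23 with TMM factors, 0.18 with RLE factors and with DESeq2, 0.35 with limma-voom, 0.45 with the replicate block, 0.62 with the block and TMM factors, and 0.17 without both replicate 3 libraries with TMM factors. CDCA7L was at 0.033 with limma-voom and 0.12 with the block and TMM factors. SHMT2 was at −0.48 with limma-voom, −0.28 with the block and −0.095 with the block and TMM factors. MAT2B was at 0.045 with the block and TMM factors and 0.065 without both replicate 3 libraries (0.37 with TMM factors). Leaving out 1 library gave −0.42 to 0.82 for USP7, −2.74 to 0.74 for CDCA7L, −0.73 to 0.29 for ZBTB33, −0.088 to 1.95 for MBD4, −0.98 to 0.80 for ZBTB38, −0.38 to 1.07 for NEIL3, −0.67 to 0.53 for UNG, −2.95 to 2.47 for MAT2B and −0.29 to 1.19 for SHMT2.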
